A study of Mus musculus with 9 samples.

Results

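The antimicrobial genes described here are 10 of the 17943 genes in the count table, chosen by name: the beta-defensins *Defb1*, *Defb3*, *Defb4*, *Defb6* and *Defb14*, the cathelicidin *Camp*, and the larger antimicrobial proteins *Lcn2*, *Slpi*, *Ltf* and *Pglyrp1*. All 10 were found and all 10 passed the filter on low counts, *Defb3*, *Defb4* and *Ltf* only through their counts in *Supt6*-KO mice. Bulk RNA-Seq had been performed on mouse skin from 5 control and 4 *Supt6*-KO mice, all taken on day 10 after the last injection. *Supt6* encodes SPT6, a factor that travels with elongating RNA polymerase II. The study describes the controls as *Supt6* fl/fl mice given corn oil and the *Supt6*-KO mice as K14-CreERT; *Supt6* fl/fl mice given tamoxifen, whereas the sample labels call the controls wild-type and name a tamoxifen-induced *Supt6* knockdown. The floxed allele is thus shared by both groups in the study's description, and the Cre transgene, tamoxifen and the deletion cannot be told apart. K14-CreERT acts in keratin 14-expressing epithelium, while whole skin was sequenced, so RNA of cells with an intact *Supt6* was counted in both groups. The labels name ear tissue and the study's text names dorsal skin.

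Antimicrobial peptides are made at body surfaces and by neutrophils. Beta-defensins are short cationic peptides, secreted by epithelial cells, that damage microbial membranes and also attract immune cells; their fold is held by disulfide bonds between conserved cysteines. In keratinocytes *Defb1* is made without stimulation, whereas *Defb3*, *Defb4* and *Defb14* are known as genes induced by cytokines such as IL-17 and IL-1 or by microbes. Cathelicidin, lipocalin 2, lactoferrin and peptidoglycan recognition protein 1 are stored in neutrophil granules, and keratinocytes can make some of them too.

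The coding sequences of the 5 beta-defensins are shown because the reads that were counted come from these short messages and because they show the cysteine pattern that defines the family. They are from the GENCODE M21 transcripts on GRCm38, the build (mm10) to which the study aligned its reads, written 5′ to 3′ with each cysteine codon in capitals.
Defb1: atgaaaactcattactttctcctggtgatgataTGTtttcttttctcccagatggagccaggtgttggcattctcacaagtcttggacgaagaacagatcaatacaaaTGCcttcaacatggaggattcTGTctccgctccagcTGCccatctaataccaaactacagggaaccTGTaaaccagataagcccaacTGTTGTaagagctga
Defb3: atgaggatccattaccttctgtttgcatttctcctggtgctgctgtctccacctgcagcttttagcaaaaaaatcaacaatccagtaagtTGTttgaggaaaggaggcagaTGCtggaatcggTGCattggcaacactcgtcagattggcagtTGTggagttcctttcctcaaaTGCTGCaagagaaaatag
Defb4: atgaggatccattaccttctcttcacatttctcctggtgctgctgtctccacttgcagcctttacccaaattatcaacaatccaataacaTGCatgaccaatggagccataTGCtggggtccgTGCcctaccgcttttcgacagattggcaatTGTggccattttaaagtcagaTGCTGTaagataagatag
Defb6: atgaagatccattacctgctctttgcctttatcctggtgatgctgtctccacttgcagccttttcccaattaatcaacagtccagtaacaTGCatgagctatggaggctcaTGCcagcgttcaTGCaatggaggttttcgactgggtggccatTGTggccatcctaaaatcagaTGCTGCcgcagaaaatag
Defb14: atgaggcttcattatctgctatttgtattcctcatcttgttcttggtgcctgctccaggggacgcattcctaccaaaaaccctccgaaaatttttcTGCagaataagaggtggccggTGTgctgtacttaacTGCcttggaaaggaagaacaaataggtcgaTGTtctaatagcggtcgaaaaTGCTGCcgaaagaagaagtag
Each sequence holds 6 cysteine codons toward its end in a similar arrangement, the last 2 of them adjacent. In *Defb3*, *Defb4* and *Defb6* the spacing of these 6 codons was 6, 3, 9, 6 and 0 residues, and in *Defb1* and *Defb14* it was 6, 4, 9, 6 and 0 residues. *Defb1* carries a 7th cysteine codon, at codon 12. *Defb4* and *Defb6* were the most alike of the 10 pairs, with 78.6% identical bases over 192 aligned, and *Defb1* and *Defb14* the least, with 56.2%. Of the 50-base words in the *Defb4* transcript, 5.68% also occur in the transcript of its neighbour *Defb8*, and none of the words of *Defb1*, *Defb3*, *Defb6* or *Defb14* occurs in another gene, so that reads of 100 bases can be assigned almost throughout.

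The beta-defensin genes lie on the forward strand of chromosome 8. In GRCm38, *Defb14* spans chr8:19194357-19195212, *Defb4* chr8:19198706-19201545, *Defb6* chr8:19225478-19228209 and *Defb3* chr8:19293360-19295291, and *Defb1* lies apart at chr8:21776599-21795185. All 5 have 2 exons in the transcript used. RefSeq promoter windows (GRCm38.p6) were at hand for 7 of the 10 genes, and those of *Defb3* and *Defb6* are shown because the upstream sequences were alike at most bases while the control levels given below were far apart. The 250 bases before the start site are written 5′ to 3′ on the forward strand, with matches to a C/EBP motif (TTNNGNAA) or to the NF-kB consensus in capitals.
Defb3, chr8:19293111-19293360: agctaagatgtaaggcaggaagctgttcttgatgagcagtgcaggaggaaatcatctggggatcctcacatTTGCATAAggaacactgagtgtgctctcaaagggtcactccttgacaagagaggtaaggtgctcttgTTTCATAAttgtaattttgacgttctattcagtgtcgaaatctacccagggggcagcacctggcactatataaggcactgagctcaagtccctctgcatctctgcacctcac
Defb6, chr8:19225228-19225477: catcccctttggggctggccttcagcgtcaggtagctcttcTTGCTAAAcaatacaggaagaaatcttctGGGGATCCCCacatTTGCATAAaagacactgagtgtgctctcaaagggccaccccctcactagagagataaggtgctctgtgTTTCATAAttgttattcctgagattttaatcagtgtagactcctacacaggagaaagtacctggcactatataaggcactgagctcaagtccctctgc
Over 220 aligned bases, 84.5% were identical. The *Defb6* window held 1 match to the NF-kB consensus, beginning 180 bases before the start, and 3 to the C/EBP motif, and the *Defb3* window held 2 C/EBP matches. Neither held a match to the AP-1 motif (TGANTCA) or to the STAT motif (TTCNNNGAA). Searched the same way on both strands, 7.3% of 32851 mouse promoters held the NF-kB consensus, 36.8% the C/EBP motif, 6.7% the AP-1 motif and 7.0% the STAT motif. Among the other 5 windows, *Pglyrp1* held an NF-kB match, *Slpi* held 3 C/EBP matches, *Ltf* 2 and *Lcn2* 1, and *Camp* held none of the 4 motifs. A C/EBP match in the *Defb6* window stands next to the NF-kB match without overlapping it, and these matches describe letters, not binding.

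The 9 libraries held 29627341 to 30967107 estimated counts each. Library sizes were scaled by edgeR's TMM method, which gave factors of 1.198 to 1.315 in controls and 0.674 to 0.91 in *Supt6*-KO mice, and levels below are in CPM, the counts of a gene relative to this scaled library size. A count of 3, taken as the floor, corresponds to 0.0764 to 0.083 CPM in a control and 0.108 to 0.144 CPM in a *Supt6*-KO mouse; floors and counting intervals cover counting error only. A gene was called changed when edgeR's quasi-likelihood test gave a p under 0.05 after Benjamini-Hochberg adjustment across the 16426 genes that passed the filter, and the change was at least 2-fold. *Supt6* was lower in every *Supt6*-KO mouse, at 28.6, 24.1, 21.9 and 28.4 CPM, while controls had 56.6 to 96.7 CPM (log2 fold change -1.57, SE 0.18, adjusted p = 1.29e-05). *Supt6*-KO mouse 4 stood apart from the other 3, with a summed level of the stress keratins *Krt6a*, *Krt6b*, *Krt16* and *Krt17* of 22840 CPM against 2949 to 5513 CPM, and all 9 calls among the antimicrobial genes held without it.

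9 of the 10 genes rose in *Supt6*-KO skin and 0 fell, and *Camp* did not pass the test. *Defb3*, *Defb4* and *Ltf*, with 2, 6 and 0 counts over all controls, passed the filter only through the *Supt6*-KO mice. The direction of their calls was thus all but fixed by the filter. With at least 10 counts required in every mouse, 6 of the genes were tested and all 6 were called higher, against 2626 of 13151 genes. None of the 10 was lower at an unadjusted p under 0.05 or with DESeq2 either. With the main filter, a call was made for 20.9% of all genes tested in the higher direction and for 24.9% in the lower direction. In 8 of the 10, every *Supt6*-KO mouse was above every control, which was so for 28.9% of all genes tested. In 0 of the 10 was every *Supt6*-KO mouse below every control, against 31.8% of all genes. This was not possible for *Defb3*, *Defb4* and *Ltf*, which had 0 counts in at least 1 control. The median fitted log2 fold change was 4.31 over the 10 genes and -0.07 over all genes tested. With *Ltf*, which had 0 counts in every control, set at its lower bound in place of its fitted value, the median of the 10 was 2.47. With library totals in place of TMM factors, the median over all genes moved to -0.76 and the calls from 3427 higher and 4088 lower (45.6% higher) to 1470 higher and 6802 lower (17.8% higher), yet all 9 antimicrobial genes were still called higher. Each fold change below is relative to the TMM scaling.

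**Figure D1:**
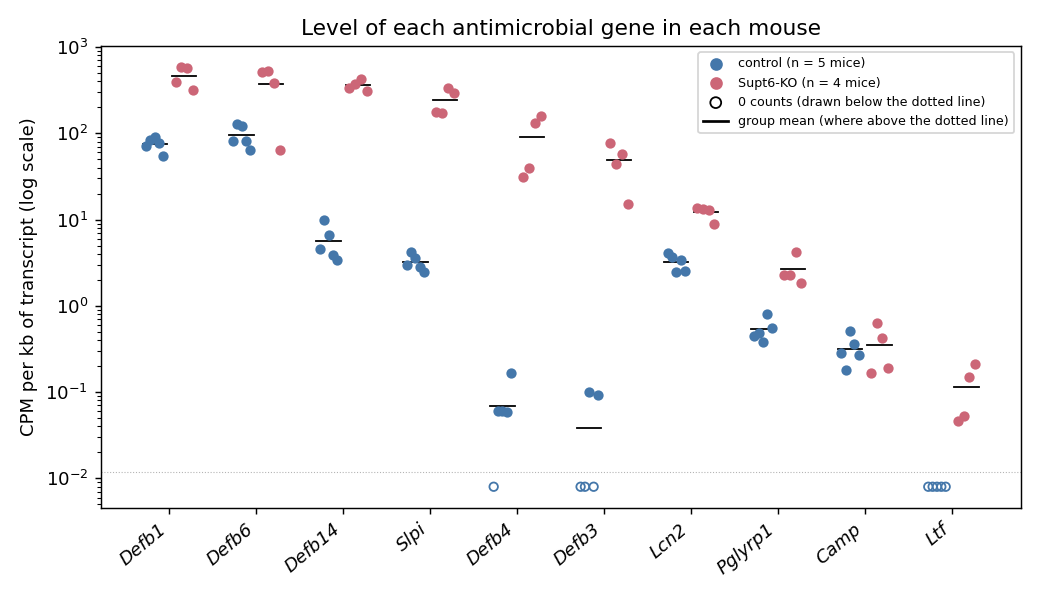
Level of each antimicrobial gene in each mouse, in CPM per kilobase of its longest transcript on a log axis, with controls (n = 5) and *Supt6*-KO mice (n = 4) side by side, bars at the group means and open circles for mice with 0 counts. Except for *Camp* and *Defb6*, the *Supt6*-KO points lie above all control points, and the order of the genes from left to right is that of their mean level in *Supt6*-KO skin.

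Of the beta-defensins, *Defb1* and *Defb6* were present in control skin and rose several-fold. *Defb1*, the mouse counterpart of human beta-defensin 1, had 62.1, 72.5, 78.2, 68.0 and 47.8 CPM in the 5 controls and 342, 513, 495 and 276 CPM in the 4 *Supt6*-KO mice. The groups did not overlap, and the *Supt6*-KO mean of 407 ± 116 CPM (SD, n = 4) was 6.19 times the control mean of 65.7 ± 11.6 CPM (SD, n = 5), with a log2 fold change of 2.63 (SE 0.21, adjusted p = 1.61e-06, edgeR). *Defb6*, a beta-defensin known from skin and muscle, had 26.4, 41.5, 39.0, 26.1 and 20.4 CPM in controls and 168, 173, 124 and 20.8 CPM in *Supt6*-KO mice. Mice 1 to 3 of the *Supt6*-KO group were above all controls, and mouse 4 was level with the lowest control. The log2 fold change of *Defb6* was 1.98 (SE 0.47, adjusted p = 0.00258, edgeR), and without *Supt6*-KO mouse 4 it was 2.33. For *Defb6*, an exact permutation test (two-sided) on log2(CPM + 1) gave p = 0.0794, where the two-sided p is double the one-sided p and can be no lower than 0.0159.

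*Defb14*, *Defb3* and *Defb4* were scarce or nearly absent in control skin. *Defb14*, the counterpart of human beta-defensin 3, had 0.936, 2.03, 1.36, 0.784 and 0.687 CPM in controls and 67.5, 76.3, 87.5 and 63.1 CPM in *Supt6*-KO mice. It was the most even of the 10 genes among the *Supt6*-KO mice, with a coefficient of variation of 14.6%, and rose 63.5-fold (log2 fold change 5.99, SE 0.29, adjusted p = 9.57e-08, edgeR). *Defb3*, an inducible epithelial defensin, was listed with 0, 0, 1, 0 and 1 counts in controls and 512, 251, 345 and 116 counts in *Supt6*-KO mice, or 4.17 to 21.4 CPM. Since the control group held only 2 counts in all, the ratio of the pooled rates is given with its exact counting interval, 1210 (95% interval 333 to 9980). *Defb4*, whose human relative is beta-defensin 2, was listed with 0, 1, 1, 1 and 3 counts in controls and with 339, 371, 1291 and 1995 counts in *Supt6*-KO mice, or 14.2 to 71.7 CPM. Its pooled ratio was 1310 (95% interval 603 to 3580). Both genes were called higher (adjusted p = 6.39e-07 for *Defb3* and 8.12e-07 for *Defb4*, edgeR), while the fitted log2 fold changes of 9.82 and 10.14 depend on edgeR's prior count.

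The remaining beta-defensins in the table stayed near 0. Of 6 others, only *Defb8* passed the filter, with 0, 4, 0, 87 and 19 counts in controls and 1, 0, 0 and 0 in *Supt6*-KO mice (adjusted p = 0.0329, edgeR), and control mouse 4 held most of them. The only alpha-defensin listed, *Defa39*, had 1 count in all. Within 500 kb of the cluster of *Defb3*, *Defb4*, *Defb6* and *Defb14*, 8 other genes were listed and 6 were tested; these neighbours were picked by position alone, after values were seen. *Spag11a*, a defensin-like gene of the epididymis, was called higher at a mean of 0.101 CPM, below the floor of every *Supt6*-KO library, and *Defb8* lower, while the neighbours *Mcph1*, *Angpt2*, *Agpat5* and *Xkr5* had log2 fold changes between -0.31 and 0.48 and were not called. Around *Defb1*, 6 of 12 other genes were tested, and *Ckap2* (1.36) and *Vps36* (1.21) were called higher on the log2 scale.

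**Figure D2:**
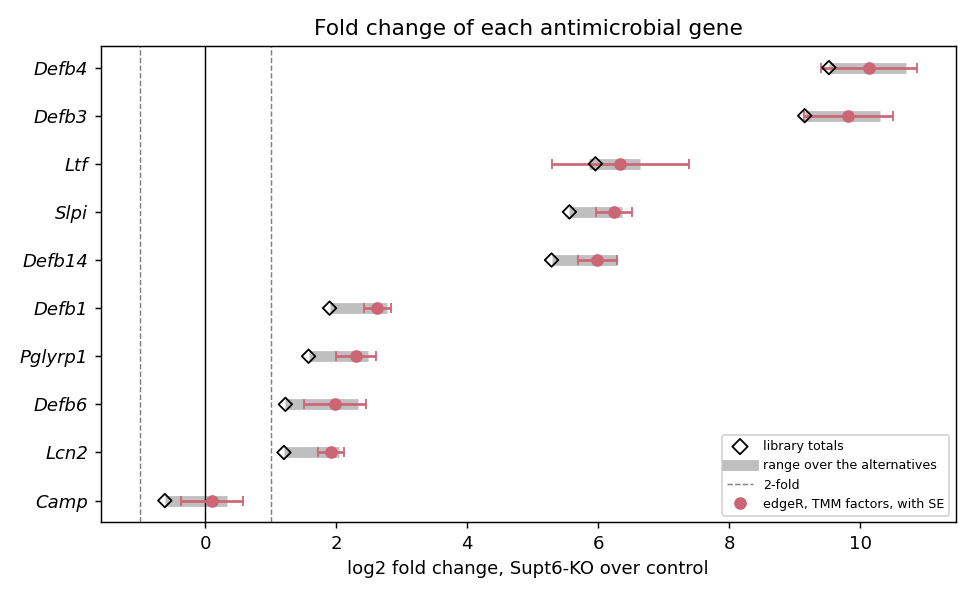
Log2 fold change of each antimicrobial gene, *Supt6*-KO over control, from edgeR with TMM factors (points, bars are SE), with library totals (diamonds) and over all alternatives tried (grey bars). All genes except *Camp* lie beyond the dashed 2-fold line, and library totals gave the lowest or nearly the lowest value for each.

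*Slpi* and *Lcn2* are secreted proteins of both epithelium and neutrophils. *Slpi*, an inhibitor of neutrophil elastase and cathepsin G with antimicrobial activity, had 2.62, 3.70, 3.16, 2.46 and 2.16 CPM in controls and 153, 149, 295 and 254 CPM in *Supt6*-KO mice. The groups were far apart, mice 3 and 4 of the *Supt6*-KO group being the higher pair, and *Slpi* rose 75.4-fold (log2 fold change 6.24, SE 0.27, adjusted p = 5.73e-08, edgeR). *Lcn2*, lipocalin 2, which binds bacterial iron carriers, had 5.62, 5.04, 3.41, 4.71 and 3.44 CPM in controls and 18.8, 18.4, 17.6 and 12.2 CPM in *Supt6*-KO mice. The groups did not overlap, and the rise was smaller, 3.77-fold (log2 fold change 1.92, SE 0.20, adjusted p = 7.65e-06, edgeR). With library totals the log2 fold changes were 5.56 for *Slpi* and 1.20 for *Lcn2*.

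The granule proteins *Pglyrp1*, *Ltf* and *Camp* were rare in both groups. *Pglyrp1*, which binds bacterial cell wall, had 17, 18, 14, 30 and 22 counts in controls (0.388 to 0.811 CPM) and 55, 48, 94 and 52 counts in *Supt6*-KO mice (1.87 to 4.30 CPM). It rose 4.93-fold (log2 fold change 2.30, SE 0.31, adjusted p = 4.55e-05, edgeR) without overlap. Of the 50-base words of its transcripts, 2.67% also occur in other genes. *Ltf*, lactoferrin, an iron-binding protein, had 0 counts in all 5 controls and 3, 3, 9 and 16 counts in *Supt6*-KO mice. Mice 1 and 2 of the *Supt6*-KO group were at the floor of 3 counts, and against the highest floor of 3 counts in a single control library, 0.083 CPM, their group mean of 0.314 CPM was at least 3.78-fold higher (adjusted p = 0.000992, edgeR). *Camp*, the precursor of the cathelicidin peptide, had 8, 5, 14, 10 and 8 counts in controls and 3, 10, 7 and 4 in *Supt6*-KO mice. The groups overlapped at 0.137 to 0.388 CPM and 0.125 to 0.480 CPM, and the pooled ratio was 1.05 (95% counting interval 0.613 to 1.76). A difference in *Camp* was not detectable at this depth (log2 fold change 0.10, SE 0.48, adjusted p = 0.855, edgeR; permutation test, exact, p = 0.825).

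Each of the 8 genes without overlap reached p = 0.0159, the lowest that doubling the one-sided p allows, in the exact permutation test (two-sided). Per kilobase of transcript, *Defb6* (95.0 CPM per kb) and *Defb1* (75.4 CPM per kb) led in control skin with overlapping ranges, and *Defb14* followed at 5.68 CPM per kb, below the lowest mouse of either. *Defb14*, *Lcn2* (3.23 CPM per kb) and *Slpi* (3.22 CPM per kb) overlapped with one another in this order. In *Supt6*-KO skin the order was *Defb1* (466 CPM per kb), *Defb6* (375), *Defb14* (361), *Slpi* (243), *Defb4* (89.6), *Defb3* (48.5), *Lcn2* (12.2), *Pglyrp1* (2.67), *Camp* (0.353) and *Ltf* (0.114). Of these neighbours only *Slpi* and *Defb4*, *Defb3* and *Lcn2*, *Lcn2* and *Pglyrp1*, and *Pglyrp1* and *Camp* had ranges that did not meet. Per kilobase, *Defb14* and *Slpi* made up 3.09% and 1.75% of the summed level of the 10 genes in controls and 22.6% and 15.2% in *Supt6*-KO mice. The annotated transcript of *Defb14* is its 204 coding bases alone, and without length the shares were 1.10% and 2.67% in controls and 8.29% and 24.0% in *Supt6*-KO mice, with *Slpi* ahead of *Defb14*. Summed without length, the 10 genes took 98.3, 125.5, 125.8, 103 and 75.4 CPM in controls and 788, 963, 1099 and 704 CPM in *Supt6*-KO mice.

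The genes did not rank the *Supt6*-KO mice alike. In CPM, *Supt6*-KO mouse 4 had the lowest level of *Defb1*, *Defb3*, *Defb6*, *Defb14*, *Lcn2* and *Pglyrp1* and the highest of *Defb4* and *Ltf*. These orders depend on its TMM factor, 0.91 against 0.674 to 0.781 in the other *Supt6*-KO mice. In counts, mouse 2 was lowest for *Defb14* (1616, 1591, 1912 and 1757) and *Pglyrp1* (55, 48, 94 and 52). *Defb3* and *Defb4*, whose genes lie within the same cluster, were ordered differently, with *Defb3* highest in mouse 1 and lowest in mouse 4 and *Defb4* lowest in mouse 1 and highest in mouse 4. The ratio of the highest to the lowest *Supt6*-KO mouse was 8.3 for *Defb6*, 5.13 for *Defb3* and 5.06 for *Defb4*, against 1.39 for *Defb14*, 1.54 for *Lcn2* and 1.86 for *Defb1*. The stress keratins *Krt6a*, *Krt6b* and *Krt16* were also highest in mouse 4, and *S100a8*, *S100a9* and the neutrophil gene *Retnlg* were lowest there. Neutrophil genes differed in this, since *Csf3r* and the summed neutrophil markers were lowest in mouse 1. The sum was 134 CPM in mouse 1 and 142 CPM in mouse 4. With 4 mice these orders are a description.

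**Figure D3:**
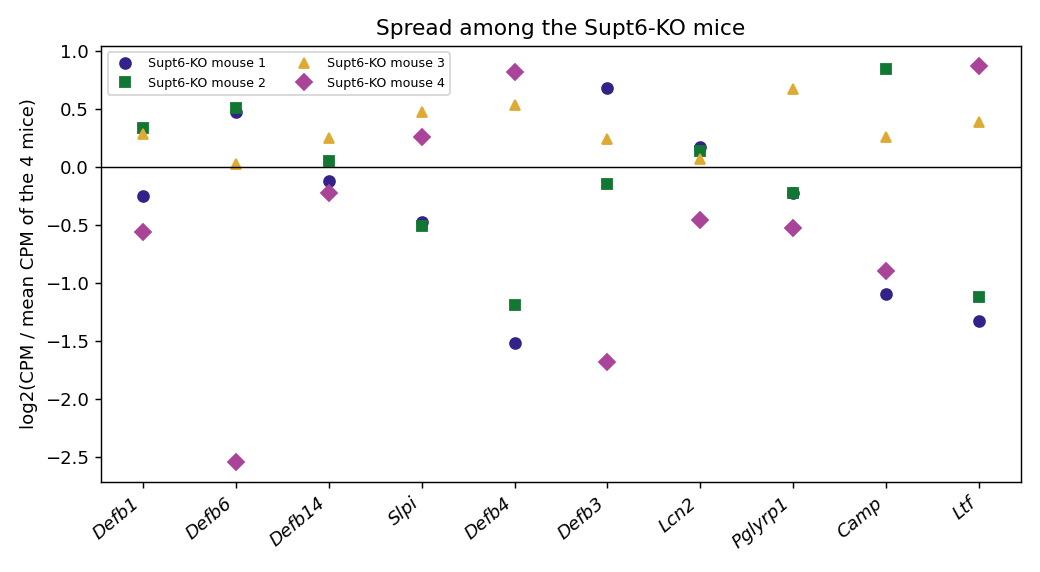
Level of each antimicrobial gene in each *Supt6*-KO mouse as log2 of its CPM over the mean CPM of the 4 mice, 1 symbol per mouse. *Defb14* and *Lcn2* vary little, *Defb6* and *Defb3* are lowest in mouse 4, and *Defb4* and *Ltf* are highest in mouse 4.

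Other antimicrobial genes of the skin moved in the same direction more often than not. Of 25 in the table, 22 were tested, 14 were called higher and 2 lower, with a median log2 fold change of 2.62. *S100a8* and *S100a9*, the subunits of the metal-binding protein calprotectin, rose from 8.20 ± 4.77 to 1919 ± 727 CPM and from 12.3 ± 7.08 to 2715 ± 895 CPM (log2 fold changes 7.87, SE 0.60, and 7.78, SE 0.54; SD, n = 5 and 4). *Sprr2a1*, a cornified envelope protein with near-identical relatives that can share its reads, rose from 43.5 ± 27.3 to 3845 ± 722 CPM. *Lyz2*, lysozyme of myeloid cells, had a log2 fold change of 2.79, and its near-identical relative *Lyz1* can share its reads. *Rnase4* (0.64) and *Cxcl14* (-0.81), a ribonuclease and a chemokine of normal skin, were not called on the log2 scale. Among the other peptidoglycan recognition proteins *Pglyrp3* rose (log2 fold change 2.45, adjusted p = 3.83e-05, edgeR), and *Pglyrp2* (0.97) and *Pglyrp4* (0.81) stayed under 2-fold. Of 8 tested relatives of *Slpi* with a WAP four-disulfide core, 3 were called higher, namely *Wfdc12*, *Wfdc17* and *Wfdc5* with log2 fold changes of 6.81, 3.59 and 1.01, and 1 lower, *Wfdc1* (-1.74). *Wfdc21* had 2234, 2731, 3136, 2322 and 1774 counts in controls and 4964, 6157, 3336 and 197 in *Supt6*-KO mice, lowest in mouse 4 as for *Defb6*, and was not called (adjusted p = 0.0869, edgeR).

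Of 17 cytokines known to induce antimicrobial genes in keratinocytes, 15 were tested and 13 were called higher, with a median fitted log2 fold change of 4.33. Some of these calls rest on few counts. *Il17a* had 0, 4, 0, 0 and 1 counts in controls and 10, 2, 6 and 1 in *Supt6*-KO mice, with overlap. *Il17f* had 2, 5, 3, 1 and 2 counts against 12, 12, 14 and 4. *Il17c* and *Il22* did not pass the filter. *Il24* had 26, 25, 23 and 492 counts in *Supt6*-KO mice, most of them in mouse 4. *Ifng* was listed with 0 counts in every control and 5, 1, 5 and 4 in *Supt6*-KO mice and entered this median at its fitted value. A median with *Ifng* at its lower bound, as for *Ltf*, was not computed and would be lower. The IL-36 cytokines, listed as *Il1f6* (IL-36 alpha), *Il1f8* (IL-36 beta) and *Il1f9* (IL-36 gamma), had log2 fold changes of 6.45, 4.33 and 2.63, and *Il1b* one of 7.09 from 0.561 ± 0.262 to 76.6 ± 33.6 CPM (SD, n = 5 and 4). *Tgfa* (-0.12) and *Il20* (0.51) were not called. Of 30 tested receptors, adaptors and transcription factors of their signalling, 3 were called higher and 5 lower, with a median of -0.33, beside 20.9% higher and 24.9% lower among all genes tested. The difference between these lists was not tested. *Nfkbiz*, which encodes the IL-17- and IL-36-induced cofactor of NF-kB, rose from 26.2 ± 6.29 to 59.0 ± 15.6 CPM (log2 fold change 1.17). *Rela* and *Nfkb2*, which encode subunits of NF-kB itself, fell (log2 fold changes -1.36 and -1.35, adjusted p = 0.000254 and 0.000175, edgeR), with every *Supt6*-KO mouse below every control. *Nfkb1* (-0.62), *Relb* (-0.89) and *Rel* (-0.78), the other subunits, were lower by less than 2-fold and were not called. These 5 subunits were picked after their values were seen. *Il6ra* (-3.34), *Vdr* (-1.74), the vitamin D receptor, and *Il6st* (-1.12) fell, and *Tnfrsf1a* (0.03) was not called.

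Receptors of the peptides went both ways, with 5 of 11 tested called higher and 2 lower. *Slc22a17*, a receptor for lipocalin 2, fell from 14.8 ± 2.40 to 2.75 ± 0.751 CPM, and *Lrp1*, which takes up lactoferrin, from 99.9 ± 45.2 to 47.8 ± 5.01 CPM. *Trem1* was listed with 4, 6, 0, 0 and 0 counts in controls and 125, 170, 234 and 193 in *Supt6*-KO mice, and *Ccr2*, a chemokine receptor that beta-defensins can engage, had a log2 fold change of 1.29. Of the 12 tested proteases and inhibitors of the pathway, 7 were called higher and 1 lower. The 4 most abundant called kallikreins, serine proteases of the cornified layer of which *Klk5* and *Klk7* process cathelicidin, had log2 fold changes of 2.31 for *Klk7*, 3.93 for *Klk8*, 5.71 for *Klk6* and 1.73 for *Klk5*. *Spink5* (0.27), an inhibitor of kallikreins, and *Adam17* (-0.09) were not called. Of 15 tested genes of metal supply and withholding, 6 were called higher and 2 lower, and among them *Tfrc*, the transferrin receptor, rose (1.13) and *Trf*, transferrin, fell (-2.76).

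Because several of the antimicrobial genes are also neutrophil granule genes, markers of neutrophils and of their granules were read beside them. In bulk skin, more cells of a type and more RNA per cell cannot be told apart. Of 20 neutrophil markers 19 were tested, 16 were called higher and 1 lower, and their summed level was 29.3 to 38.3 CPM in controls and 134 to 287 CPM in *Supt6*-KO mice. The most abundant in *Supt6*-KO skin, *Clec4d*, rose from 0.352 ± 0.253 to 34.7 ± 18.9 CPM, *Retnlg* from 0.212 ± 0.183 to 20.6 ± 22.2 CPM, and *Csf3r*, the receptor for G-CSF, from 0.496 ± 0.144 to 8.47 ± 2.99 CPM (SD, n = 5 and 4). Single *Supt6*-KO mice had 11.7, 13.4, 53.4 and 4.06 CPM of *Retnlg*, so its mean depends on mouse 3. The defining marker *Ly6g* was listed with 0, 1, 0, 0 and 0 counts in controls and 4, 0, 15 and 1 in *Supt6*-KO mice. *Mpo*, a protein of the primary granules made in immature neutrophils, had 4, 10, 10, 26 and 16 counts in controls and 1, 0, 0 and 0 in *Supt6*-KO mice, and *Elane* had at most 1 count in any mouse. Of the 3 tested genes of these granules *Mpo* was called lower (adjusted p = 0.000954, edgeR), and *Prtn3* and *Ctsg* were not called. Of 10 tested genes of the later granules 6 were called higher and 0 lower, among them *Chil3* (log2 fold change 8.28) and *Mmp8* (5.07), while *Mmp9* (0.46) and *Cnn2* (0.13) were not called. *Ngp*, stored in the same granules as *Camp* and *Ltf*, was listed with 1, 0, 0, 2 and 4 counts in controls and 23, 12, 85 and 8 in *Supt6*-KO mice. The part of neutrophils in the levels of *Lcn2*, *Slpi*, *Ltf* and *Pglyrp1* was not tested.

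**Figure D4:**
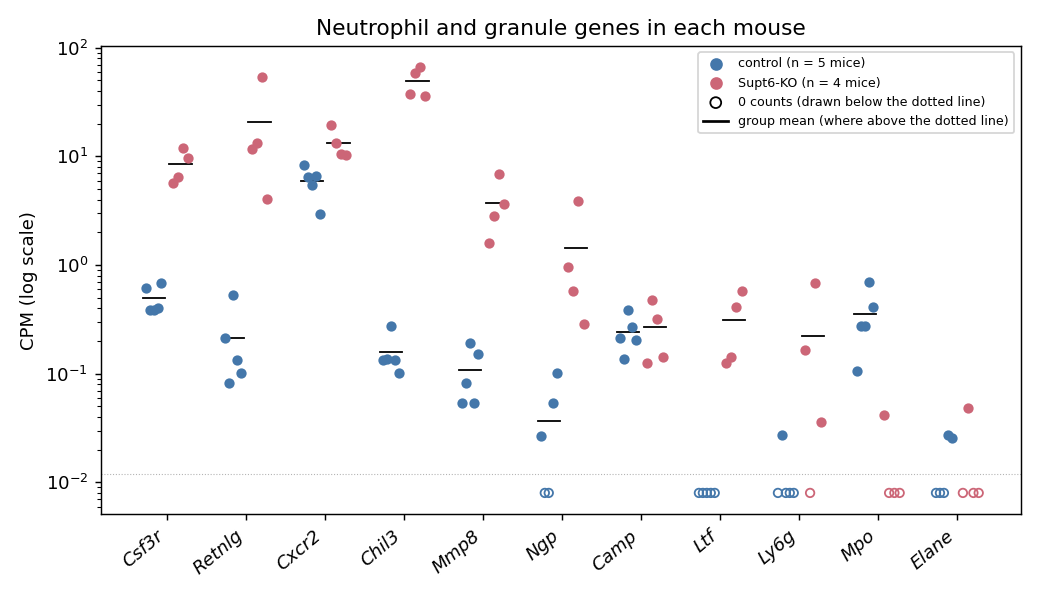
Level in CPM on a log axis of neutrophil and granule genes in each control (n = 5) and *Supt6*-KO mouse (n = 4), with group means as bars and open circles for 0 counts. *Csf3r*, *Retnlg*, *Chil3*, *Mmp8* and *Ngp* lie higher in every *Supt6*-KO mouse, *Camp* overlaps, and *Mpo* is lower.

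Markers of other cell types and skin structures also moved with the groups. Keratinocyte markers, among them *Krt10* (control 14340 ± 729 CPM, *Supt6*-KO 16350 ± 5761 CPM, SD, n = 5 and 4), were abundant in all mice, and their summed level was 31240 to 34430 CPM in controls and 33330 to 49030 CPM in *Supt6*-KO mice. Of the 10, *Krt1* and *Krtdap*, markers of suprabasal cells, were called higher with log2 fold changes of 3.65 and 1.82, and 4 were called lower, among them *Krt15* (-2.65). All 4 stress keratins were called higher, *Krt16* being the most abundant in *Supt6*-KO skin and *Krt17* in controls. *Krt17* overlapped between the groups (log2 fold change 1.04). It had 404, 241, 314 and 1078 CPM in the *Supt6*-KO mice, highest in mouse 4, and 184 to 349 CPM in controls. Of 12 monocyte and macrophage markers 7 were called higher and 1 lower, with summed levels of 222 to 416 CPM and 365 to 432 CPM. Of 7 tested T cell markers 1 was called higher and 3 lower, and the summed level was 34.6 to 47.2 CPM in controls and 8.80 to 15.5 CPM in *Supt6*-KO mice, with *Cd3g* the most abundant in controls (15.4 ± 2.70 and 2.46 ± 0.964 CPM). Of the sebaceous gland markers 6 of 9 were called lower, among them *Scd1*, the most abundant, and of the hair follicle markers 9 of 10, among them *Krt71*, the most abundant in controls. The summed hair follicle markers spread from 32.3 to 1912 CPM in controls and from 21.3 to 77.3 CPM in *Supt6*-KO mice. Control mouse 5, the lowest control, lay inside the *Supt6*-KO range. Of 7 dermal fibroblast markers *Col1a1* (-3.64) and *Col1a2* (-2.37) were called lower on the log2 scale, and *Col3a1*, the most abundant, was not called (log2 fold change -0.31, adjusted p = 0.43, edgeR). None of these markers was called higher. Ear cartilage markers summed to 383 to 885 CPM in controls and to 68.3 to 83.2 CPM in *Supt6*-KO mice, with *Acan* the most abundant in controls, 8 of 8 tested called lower and *Matn1* at 0 in 8 of the 9 mice. The part of these shifts in the levels of the antimicrobial genes was not tested.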

How the data were processed

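Skin RNA of 5 control and 4 *Supt6*-KO mice was compared, each GEO sample being 1 mouse, grouped and numbered by its title. The authors aligned reads of 100 bases to mm10 with Bowtie2 2.3.4.3 and quantified genes with RSEM 1.3.1, whose estimated counts they deposited. The submitters' processing notes also name HISAT and DESeq2 1.4.5, and the annotation release is not given in the sources used here. The deposited TPM values, in 6 columns, were used for no result. Of the estimated counts, 9% were not whole, and all were rounded. Of 17943 gene identifiers, 17911 matched a RefSeq gene of GRCm38.p6 and 32 did not.

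Genes with at least 10 counts over the 9 mice (16426) were tested with edgeR 4.0.16 (R 4.3.3) by the quasi-likelihood test with TMM factors, no covariates and Benjamini-Hochberg adjustment. Called genes had an adjusted p under 0.05 and at least a 2-fold change. Standard errors (SE) are the size of the log2 fold change over the square root of the F value. Single genes were also compared by a two-sided exact permutation test on log2(CPM + 1) over 126 divisions, with the two-sided p taken as double the smaller one-sided p. Ratios of pooled counts carry exact 95% binomial intervals. The edgeR p-values set the group difference against the spread between these mice, estimated with information from all genes. The permutation p-values rank it among the 126 divisions. No batch is named in the labels.

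The 10 genes and all gene lists were chosen with earlier results of these data known. Named genes are the 10, *Supt6*, the relatives of the *Defb*, *Wfdc* and *Pglyrp* families, and from each list up to 4 called genes with the highest CPM and up to 2 not called, with the most abundant and the near-absent cell markers and 6 fixed neutrophil genes. The 5 NF-kB subunits, *Ifng*, *Il17a*, *Il17c*, *Il17f*, *Il22*, *Il24* and the genomic neighbours fall outside this rule and were chosen after values were seen. Listed genes that were not in the count table, such as *Reg3b* and *Trac*, were not analysed here.

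Alternatives were library totals, upper-quartile and RLE factors, DESeq2 1.42.0, other filters, the 50 most abundant genes left out, a replicate block, each mouse left out, other call rules, another pseudocount and levels without length. The tests were also run on simulated counts in which none or few genes changed, equally in both directions. Those simulations did not cover data such as these, in which 45.8% of genes tested were called and TMM factors differed between the groups. Sequences are from GENCODE M21 transcripts and RefSeq promoters, read with Biopython 1.88, and shared sequence was searched by 50-base words. Tables and plots used Python 3.11.15, pandas 2.3.3, SciPy 1.17.1 and matplotlib 3.10.9.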

Additional observations from a re-analysis of the deposited data

Results flagged for a closer look

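Among 44 sets of values within a group (the antimicrobial genes, *Supt6*, summed marker lists, totals and TMM factors), 2 had a mouse far from the others of its group by Dixon's criterion, which chance gives in about 1 of 20 sets. The summed level of the stress keratins *Krt6a*, *Krt6b*, *Krt16* and *Krt17* was 22840 CPM in *Supt6*-KO mouse 4 against 5513 CPM in the next mouse. The summed keratinocyte markers were 34430 CPM in control mouse 4 against 31740 CPM in the next control. None of the 10 antimicrobial genes met the criterion in either group.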

How the results depend on the processing

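The 9 antimicrobial genes called higher were called higher under every alternative in which they were tested, and 0 were called lower under any. Requiring 10 counts or more in each mouse left out *Defb3*, *Defb4*, *Camp* and *Ltf*, and edgeR's filterByExpr left out *Camp* and *Ltf*. The stricter filter, which tests fewer genes, also took the genes called higher from 16 to 4 of the neutrophil markers, from 13 to 6 of the inducing cytokines and from 14 to 8 of the other skin antimicrobial genes, and those called lower from 1 to 0 among the neutrophil markers and from 2 to 0 among the other antimicrobial genes, of which the test against a 2-fold change called 1 lower. Over all genes, library totals gave 1470 higher and 6802 lower, the test against a 2-fold change 2271 higher, and an adjusted p with no fold limit 5608 higher. Leaving out each mouse gave 3248 to 3476 higher and 3845 to 4204 lower. Library totals moved the log2 fold change of the called genes down to 1.90 for *Defb1*, 1.22 for *Defb6*, 1.20 for *Lcn2* and 1.58 for *Pglyrp1*. The sign of *Camp*, which was never called, turned with library totals (-0.62) and with some mice left out (-0.34 to 0.34). The permutation test gave p under 0.05 for 8 genes with either pseudocount. Without length, the rank of 7 of the 10 genes by level in *Supt6*-KO skin changed.

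With the replicate block, 9 antimicrobial genes were called higher and 0 lower, and 3134 genes were called higher and 3834 lower overall. Same-numbered mice had correlations of their deviations from the group mean of 0.021 to 0.248. Their mean was 0.149 over 4 pairs, against -0.032 over the 16 pairs with other numbers. They did not each correlate best with their own number (control 3 had 0.308 with *Supt6*-KO mouse 2). The numbers were not taken as pairs in the main test, and these correlations do not settle whether they are. Counts were low for *Camp*, *Ltf* and *Pglyrp1*, and for *Defb3* and *Defb4* in controls, which limits how well their fold changes are known.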
